A study of Homo sapiens with 2 samples.

Results

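The APOBEC cytidine deaminases were examined in xenograft tumours of HT-29, a long-established line of human colon cancer cells. The family was taken as 9 genes of the 26255 gene symbols listed, chosen by symbol: APOBEC1, its RNA-binding partner A1CF, and the 7 genes APOBEC3A, APOBEC3B, APOBEC3C, APOBEC3D, APOBEC3F, APOBEC3G and APOBEC3H. All 9 were found in both files. A1CF is grouped with them as a cofactor and is not itself a deaminase. HT-29 cells grown in complete medium were placed under the skin of female NOD SCID mice, 5 weeks old when obtained and without T and B cells. The hosts were then given either normal food or food lacking methionine, tryptophan and niacin, called normal feeding and depletion here. The diets lasted 2 weeks by one statement of the study and the experiment 3 weeks by another. Each diet is represented by 1 RNA library, and how many tumours went into a library was not found (not given in the sources used here). No value below has a replicate, so each difference is between 2 libraries, no test was made, and diet and any other difference between the tumours cannot be told apart.

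APOBEC enzymes remove the amino group of cytosine in single-stranded DNA or RNA, which turns cytosine into uracil. APOBEC1 edits RNA in the small intestine, where it creates a stop codon in the transcript of apolipoprotein B, and it needs an RNA-binding partner to find its site. The APOBEC3 enzymes lie side by side on chromosome 22, restrict retroviruses and mobile elements, and are best known in white blood cells. APOBEC3A and APOBEC3B are also known in carcinomas for leaving C-to-T and C-to-G changes in tumour genomes.

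Levels are in FPKM, fragments scaled for transcript length and for library size, so that they can be compared between genes. Differences are given as the log2 ratio of depleted to normal diet after adding a pseudocount of 1 FPKM to both values, which shrinks the ratios of low genes. A gene counted as measured when its 2 values averaged at least 1 FPKM, which held for 12414 genes, with a median log2 ratio of -0.0029. Under depletion 6132 of these genes were higher and 6282 lower, the background for the splits of the lists below. Of the 9 family genes 2 were measured, APOBEC1 and APOBEC3B. Another 5 were above 0 in at least 1 library but below a mean of 1 FPKM, and APOBEC3G and APOBEC3H were listed at 0 in both. A 0 in these files can be a failed estimate and is not taken as absence.

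APOBEC1 showed the family's largest difference between the libraries on the scale with the pseudocount; without it, the ratios of APOBEC3C and APOBEC3F, on a few fragments, were larger. It was 3.66 FPKM under normal feeding and 1.00 FPKM under depletion, giving a log2 ratio of -1.22. Without the pseudocount the normal-diet value was 3.66 times the depleted-diet value. Among the 16481 genes above 0 on the normal diet APOBEC1 ranked 10154, and among the 16427 above 0 on the depleted diet it ranked 12405. APOBEC1 was the 1 family gene at least 2-fold lower on the depleted diet, a count beside which 0.371% of all measured genes were at least 2-fold lower. No family gene was at least 2-fold higher, against 0.524% of all measured genes. Genes of APOBEC1's own level differed more often: among 2953 genes that average 1 to 5 FPKM, 0.779% were at least 2-fold lower and 0.847% at least 2-fold higher. With the genes of short RNAs left out, 0.211% of the remaining 12316 measured genes were at least 2-fold lower and 0.203% at least 2-fold higher. Because the family was chosen with these values known, the shares are given for scale only.

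The number of fragments behind these values is small and could be estimated from the values. Most low FPKM values behaved as whole multiples of what 1 fragment is worth. Of 3184 genes below 1 FPKM and above 0 in both libraries, 72.5% gave whole numbers up to 20. A fragment of the depletion library was worth 1.04 times one of the normal-feeding library. In these units the 2 APOBEC1 values stood as 19 to 5, within 0.01%. The depth of the normal-feeding library, estimated from the spacing of low values, was 7280000 to 7860000 fragments. Dividing it by the ratio of 1.04 gave 7000000 to 7560000 under depletion. For a transcript of 879 nt these depths give 19.5 to 23.4 and 5.14 to 6.17 fragments. The estimate under depletion follows from the other and from the ratio of 19 to 5, so it is no separate check. The smallest whole numbers, 19 and 5, lay just under these estimates, and the next multiple lay above them. For APOBEC3F and APOBEC2 the same method gave fewer fragments than the smallest whole numbers, so a larger multiple is not excluded. The exact Poisson 95% interval was 11.4 to 29.7 for 19 fragments and 1.62 to 11.7 for 5. From these counts the exact binomial 95% interval of the log2 ratio, with no pseudocount, ran from -3.65 to -0.40 around -1.87. Such intervals cover counting error only: fragments copied in PCR are not independent molecules, and the spread between tumours is not in them.

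The part of APOBEC1 that makes it a deaminase is printed here, since it is the family gene that differed most on the pseudocount scale. It is the stretch of coding sequence in which the histidine, glutamate and cysteines that hold and serve the catalytic zinc lie, on the coding strand of the GENCODE release 29 transcript (build GRCh38, chromosome 12), with the codons of those 4 residues in capitals. It covers codons 61 to 96 of 236, and a search of the reading frame found it 1 time. None of the 830 different runs of 50 nt in the APOBEC1 coding transcripts occurred in a transcript of another human gene in that release.
APOBEC1 zinc-binding stretch: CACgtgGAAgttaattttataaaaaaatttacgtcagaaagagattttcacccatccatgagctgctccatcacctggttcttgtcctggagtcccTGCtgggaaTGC

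A1CF, the cofactor that guides APOBEC1 to apolipoprotein B RNA, was low in both libraries. It was 0.196 FPKM under normal feeding and 0.233 FPKM under depletion, 7 to 8 fragments in the smallest whole numbers (log2 ratio 0.04). Its longest transcript, 9517 nt, would also allow 14 and 16 fragments. Without a pseudocount the log2 ratio was 0.25. With 14 and 16 its 95% counting interval ran from -0.88 to 1.39, so no difference in A1CF was detectable at this depth.

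The main RNA substrate of APOBEC1 was nearly unrepresented. APOB was listed at 0 on the normal diet and at 0.0095 FPKM on the depleted diet, which is at most 0.938 of a fragment for its transcript of 14121 nt, so that the value rests on about 1 fragment. The site at which APOBEC1 acts in APOB is printed to show what is edited, a glutamine codon (in capitals) whose first base is deaminated to give a stop codon, followed by the bases at which the cofactor binds. The sequence is the coding strand of the GENCODE release 29 transcript on chromosome 2, build GRCh38.
APOB edited site: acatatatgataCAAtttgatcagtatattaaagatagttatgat

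Other proteins that join APOBEC1 in editing ranged widely in level. CELF2, an RNA-binding protein named here after its values were seen, was low at 0.196 and 0.0848 FPKM, under APOBEC1 in both libraries. RBM47, a cofactor that can take the place of A1CF and that is named here after its values were seen, was 37.8 FPKM under normal feeding and 39.1 FPKM under depletion. That is 193 times the level of A1CF on the normal diet and 168 times on the depleted diet. Because A1CF rests on few fragments, 7 and 8 in the smallest whole numbers, both figures are rough and their difference is not read. SYNCRIP, an RNA-binding protein found with the editing complex, was 89.3 and 88.0 FPKM (log2 ratio -0.02). HNRNPAB, another APOBEC1-binding protein, was 135 and 147 FPKM (0.12). DNAJB11, a chaperone cofactor of the endoplasmic reticulum that also binds APOBEC1, had the highest ratio of the list at 49.7 and 65.8 FPKM (0.40). Of the 8 genes in the list of editing cofactors and APOB, 6 were measured. Under depletion 5 of these were higher and 1 was lower (median log2 ratio 0.08). None of the 6 was past 2-fold.

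APOBEC3B was the most abundant family gene and was nearly equal in both libraries. APOBEC3B, a nuclear enzyme that deaminates DNA, was 5.14 FPKM under normal feeding and 5.34 FPKM under depletion, giving a log2 ratio of 0.05. It ranked 9332 and 9248 among the genes above 0. The ratio of its 2 values equalled the ratio of the worth of 1 fragment between the libraries, within 0.01%, so the number of fragments stood as 1 to 1. It is estimated at 43.7 to 68.9 in each library by its coding transcripts of 1282 to 1844 nt. Taking 43 fragments in each library, the 95% counting interval of the log2 ratio without a pseudocount, 0.06, ran from -0.59 to 0.70. APOBEC3B was 1.40 times the level of APOBEC1 on the normal diet and 5.33 times on the depleted diet. Among the 2384 genes averaging 5 to 10 FPKM, as APOBEC3B does, 0.503% were at least 2-fold lower and 0.671% at least 2-fold higher. Without short RNAs, log2 ratios at that level had an SD of 0.24 (2360 genes), against 0.35 at 1 to 5 FPKM, where APOBEC1 lies (2937 genes).

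**Figure D1:**
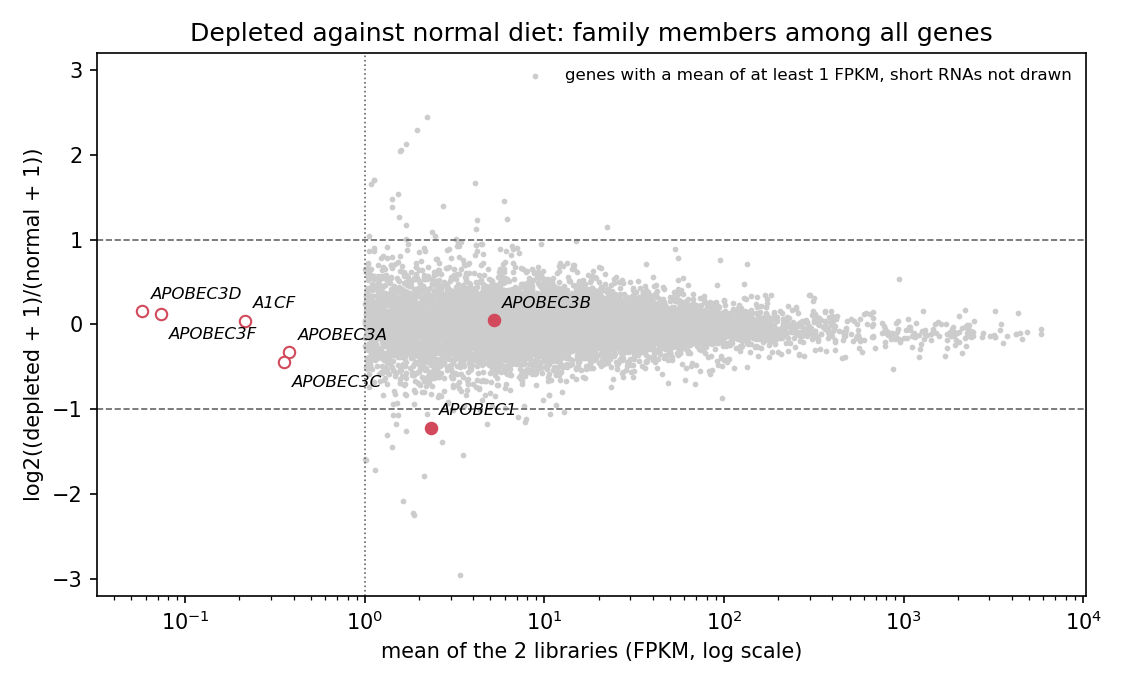
Log2 ratio of depleted to normal diet (pseudocount 1 FPKM) against the mean FPKM of both libraries on a log axis, with grey points for 12316 genes and red points for family genes, open where the mean is below 1 FPKM. APOBEC1 lies at -1.22, below the dashed 2-fold line, and APOBEC3B at 0.05. The 98 measured short RNAs, and APOBEC3G and APOBEC3H, listed at 0 in both libraries, are not drawn.

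APOBEC3A, the close relative of APOBEC3B known in monocytes and keratinised epithelium, was low. It was 0.535 FPKM under normal feeding and 0.222 FPKM under depletion, 5 to 2 in fragments. The log2 ratio was -0.33. Without a pseudocount it was -1.27, with a 95% counting interval from -4.66 to 1.34. APOBEC3C, which has a single deaminase domain and is among the more widely expressed genes of the cluster, was 0.560 and 0.146 FPKM (log2 ratio -0.45). In fragments APOBEC3C stood as 4 to 1, a log2 ratio of -1.94 without a pseudocount, with an interval from -7.57 to 1.39. Its annotated transcript of 2818 nt gives about 11.5 and 2.88 fragments, nearer to 12 and 3, for which the interval ran from -4.41 to -0.05. Both genes were lower on the depleted diet, on few fragments. Which multiple holds for APOBEC3C was not settled, so its direction cannot be read firmly at this depth.

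APOBEC3D and APOBEC3F, which have a pair of deaminase domains and restrict retroviruses, were close to 0. APOBEC3D was listed at 0 on the normal diet and was 0.115 FPKM on the depleted diet. Its longest annotated transcript, 2528 nt, gives an estimate of 2.03 fragments, which is no firm upper limit. APOBEC3F was 0.028 FPKM under normal feeding and 0.118 FPKM under depletion, 1 to 4 in the smallest whole numbers. Its longest transcript, 2694 nt, gives at most 0.555 and 2.22 fragments, fewer than 1 and 4, so the number of fragments was not settled. Taken as 1 and 4, the 95% counting interval of the log2 ratio without a pseudocount, 2.06, ran from -1.28 to 7.68. APOBEC3G, the best known inhibitor of HIV among them, and APOBEC3H, another restriction factor, were listed at 0 in both libraries. No difference between the diets was detectable at this depth in APOBEC3D, APOBEC3F, APOBEC3G or APOBEC3H.

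Of the 7 APOBEC3 genes, 4 were above 0 on the normal diet and 5 on the depleted diet. Their summed level was 6.26 FPKM and 5.94 FPKM, of which APOBEC3B made up 82.1% and 89.9%. In order of level on the normal diet, APOBEC3B was followed by APOBEC1, APOBEC3C, APOBEC3A, A1CF and APOBEC3F. On the depleted diet the order was APOBEC3B, APOBEC1, A1CF, APOBEC3A, APOBEC3C, APOBEC3F and APOBEC3D. The places of the genes below 1 FPKM rest on a few fragments each, and neighbours among them cannot be ranked.

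Reads of APOBEC3 genes can be hard to assign because the genes are recent copies. Of the 1710 different runs of 50 nt in APOBEC3A coding transcripts, 29.01% also occur in APOBEC3B, and 25.5% of the 1938 in APOBEC3B occur in APOBEC3A. Counting any other gene, the share was 38.7% for APOBEC3B, 36.5% for APOBEC3A, 21.4% for APOBEC3F, 19.1% for APOBEC3G and 85.8% for APOBEC3D. It was 1.16% for APOBEC3C and 0% for A1CF and APOBEC3H. Of the 2554 runs of APOBEC3D, 2192 occurred in another gene, but 224 in APOBEC3F, 154 in APOBEC3B and 24 in APOBEC3C. Most of its share thus came from symbols outside the 9 genes and does not measure likeness within the family. The way such reads were divided between genes and the read length were not found (not given in the sources used here), so the split between APOBEC3A and APOBEC3B is uncertain. The symbol APOBEC3A_B, a joined form of both genes, was listed at 0 in both libraries. APOBEC3B-AS1, a transcript on the opposite strand, overlaps APOBEC3B by 1221 nt in the RefSeq annotation of GRCh38.p14 and was 0.508 and 0.528 FPKM. Without the strand setting used in counting, reads of the shared bases cannot be told apart.

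The genes around the cluster were expressed at very different levels. RefSeq places the 7 genes on chromosome 22 in the order APOBEC3A to APOBEC3H between CBX6 and CBX7, which encode Polycomb proteins that bind methylated histone. CBX6 was 1.96 FPKM under normal feeding and 3.02 FPKM under depletion (log2 ratio 0.44), and CBX7 was 4.49 and 4.21 FPKM (-0.08). On the CBX6 side, NPTXR, a pentraxin receptor of neurons, was 0.521 and 0.306 FPKM, DNAL4, a dynein light chain, 12.7 and 9.87 FPKM (-0.33), and SUN2, of the nuclear envelope, 25.7 and 22.9 FPKM (-0.16). On the CBX7 side, PDGFB, a growth factor, was 12.3 and 11.7 FPKM (-0.07) and RPL3, a ribosomal protein, 1980.5 and 1848 FPKM (-0.10). Of the 7 neighbours 6 were measured, 1 higher and 5 lower, with a median of -0.09. APOBEC3B thus lay beside genes both above and below its own level, and none of its measured neighbours was past 2-fold.

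**Figure D2:**
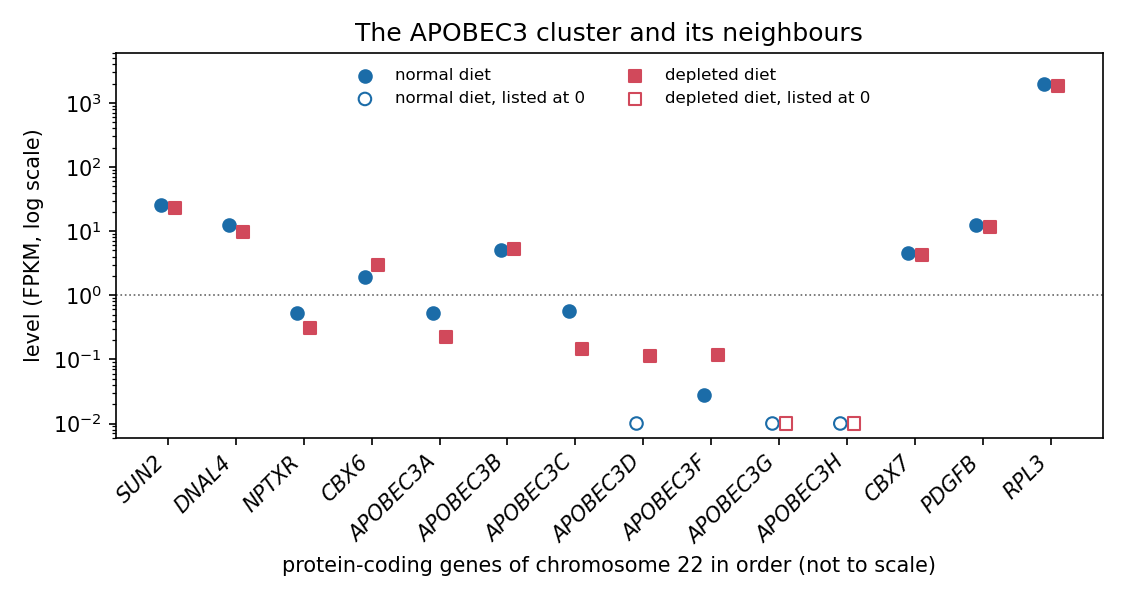
Level in FPKM on a log axis for the protein-coding genes of chromosome 22 from SUN2 to RPL3 in their order, with circles for the normal diet and squares for the depleted diet. Open symbols at the bottom mark values listed at 0. Within the cluster, APOBEC3B at 5.14 and 5.34 FPKM is the 1 gene above the dotted line at 1 FPKM.

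Family genes outside the 9 were also compared. APOBEC2, a muscle protein, was 0.355 and 0.461 FPKM, 4 to 5 in the smallest whole numbers. Its transcript of 1151 nt gives fewer, 2.65 to 2.97 and 3.32 to 3.72 fragments. APOBEC4 was 0.099 FPKM on the normal diet and listed at 0 on the depleted diet. Enzymes that deaminate free nucleosides and nucleotides were far more abundant: CDA, cytidine deaminase, was 25.01 and 22.2 FPKM (log2 ratio -0.17), and DCTD, deoxycytidylate deaminase, was 41.3 and 41.4 FPKM (0.01). CDADC1, a related enzyme, had the lowest ratio of the list at 1.91 and 1.56 FPKM (-0.19). Of the 6 genes of this list 3 were measured, 1 higher and 2 lower, with a median of -0.17. ADAR, which converts adenosine to inosine in double-stranded RNA, was 46.1 and 50.6 FPKM (0.13). Of 6 adenosine deaminases of RNA and tRNA 4 were measured, 3 higher and 1 lower (median 0.09), ADAT1 being the highest ratio at 6.31 and 8.02 FPKM (0.30) and ADAT2 the lowest at 5.92 and 4.91 FPKM (-0.23).

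Uracil made in DNA by APOBEC enzymes is removed by base excision repair. All 12 genes of that list were measured, and under depletion 7 were higher and 5 lower (median log2 ratio 0.07, mean -0.0022, of opposite sign). APEX1, which cuts the DNA backbone at a site without a base, was 96.0 and 102 FPKM (0.09). The highest ratio was FEN1, a flap nuclease, at 39.2 and 48.5 FPKM (0.30), and the lowest was SMUG1, a uracil glycosylase, at 36.5 and 25.9 FPKM (-0.48). Of 12 genes that bind single-stranded DNA or copy past damage, 7 were higher and 5 lower (median 0.04). RPA1 and RPA2, which coat the single-stranded DNA on which APOBEC3 enzymes act, were 24.0 and 23.6 FPKM (-0.03) and 22.7 and 26.98 FPKM (0.24). REV3L, the catalytic subunit of a translesion polymerase, had the lowest ratio at 4.97 and 4.16 FPKM (-0.21). ATRIP, the partner of the checkpoint kinase ATR, had the highest at 1.80 and 4.61 FPKM (1.00), barely past 2-fold. It was the 1 measured gene of all the companion lists past 2-fold. Of all measured genes 0.524% were at least 2-fold higher and 0.371% at least 2-fold lower, so this count is given for scale only.

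APOBEC3B is known to be held down by the RB and DREAM repressor complexes and raised by NF-kB. Of 14 genes of the RB, E2F and DREAM list, all measured, 8 were higher and 6 lower, the median being 0.05 and a mean of -0.0081. TFDP1, the partner of E2F factors, was 92.1 and 101 FPKM (0.14), and MYBL2, which replaces the repressor in dividing cells, was 58.8 and 57.4 FPKM (-0.03). E2F4, a repressor subunit, had the highest ratio at 39.2 and 45.9 FPKM (0.22), and LIN9, of the shared core, the lowest at 5.60 and 4.28 FPKM (-0.32). Of the 5 NF-kB subunits 1 was higher and 4 lower, with a median of -0.25. RELA was 45.4 and 43.6 FPKM (-0.06), NFKB1 14.2 and 15.0 FPKM (0.07), and RELB, of the non-canonical branch, 8.64 and 6.94 FPKM (-0.28).

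Interferon induces several APOBEC3 genes in other cells. Of 15 interferon receptors, signalling genes and targets, 6 were higher and 9 lower (median -0.05). ISG15, a ubiquitin-like protein, was 103 and 94.2 FPKM (-0.13) and IFI6, of mitochondria, 72.1 and 71.4 FPKM (-0.01). IFNAR2, a receptor chain, had the highest ratio at 5.06 and 8.70 FPKM (0.68), and IFIT3, an antiviral target gene, the lowest at 13.0 and 7.85 FPKM (-0.66). ISG15 and IFI6 stood at these levels in the libraries in which APOBEC3G and APOBEC3H were listed at 0. Of 12 other restriction factors of viruses and mobile elements 11 were measured, 5 higher and 6 lower (median -0.04). BST2, which tethers virus particles, was 105 and 111 FPKM (0.07), and MOV10, an RNA helicase, 28.8 and 27.9 FPKM (-0.04). TRIM5, which binds retroviral capsids, had the highest ratio at 8.48 and 10.2 FPKM (0.24), and TREX1, which degrades cytosolic DNA, the lowest at 8.997 and 6.22 FPKM (-0.47).

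**Figure D3:**
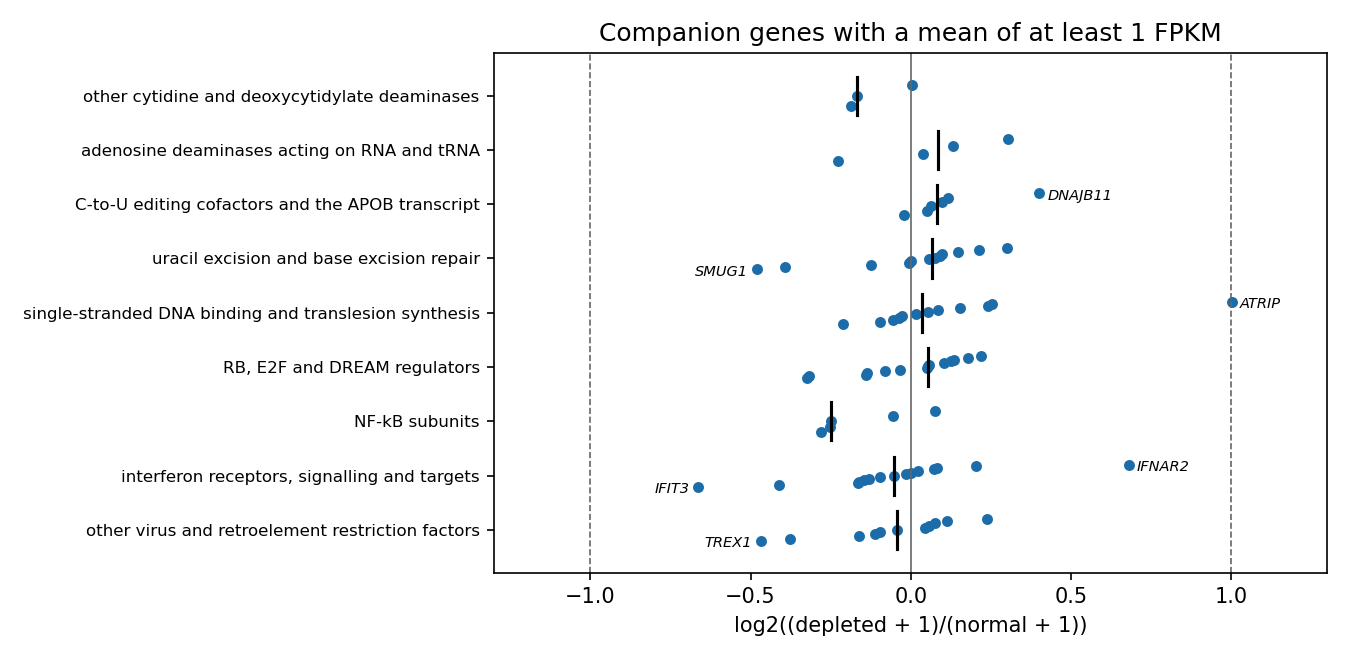
Log2 ratio of depleted to normal diet (pseudocount 1 FPKM) for measured genes of 9 companion lists, with 1 point a gene and a black bar at the median of each list. Medians lie between -0.25 for NF-kB subunits and 0.09 for adenosine deaminases, and dashed lines mark 2-fold.

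Markers of the tumour cells and of white blood cells were set beside these values. All 9 colon epithelium markers were measured, among them KRT8 at 3849 and 3313 FPKM, KRT18 at 2076 and 2334 FPKM and KRT19 at 1216 and 1010.1 FPKM. Of the 14 leukocyte markers 3 were measured and 5 were listed at 0 in both libraries, namely the T cell genes CD3E, CD3D and CD2, GNLY and MS4A1. PTPRC, the pan-leukocyte marker, was 0.027 FPKM on the normal diet and listed at 0 on the depleted diet. The summed leukocyte markers were 28.0 and 24.6 FPKM, mostly CD68, a lysosomal protein, at 25.6 and 20.8 FPKM. LAPTM5, of lymphoid and myeloid lysosomes, was 0.873 and 1.75 FPKM (0.55). CD14, of monocytes, was 0.709 and 1.49 FPKM (0.55). Host cells are mouse cells, so low values of human leukocyte genes do not show how many host white blood cells were present. Removal of mouse reads was not described (not given in the sources used here). The part of host cells in the APOBEC values was not tested. In bulk tumours, fewer cells that express APOBEC1 and less APOBEC1 RNA in each cell cannot be told apart.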

How the data were processed

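RNA of 2 HT-29 tumour libraries, 1 for each diet, was made into libraries that keep the strand of the mRNA, per the labels' protocols. The deposited values are FPKM made by the authors, per the file headers. Per the submitters' processing notes, which give no roles, the build was hg19 and the tools were Cuffdiff 2.2.1, TopHat2 2.1.1, SAMtools 0.1.18 and Bowtie2 2.2.8. Annotation, strand setting and removal of mouse reads: not given in the sources used here. The annotation at hand is on GRCh38, so no gene coordinates are printed.

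Log2 ratios, medians and counts at a mean of at least 1 FPKM were computed with Python 3.11.15, numpy 2.4.6, pandas 2.3.3 and scipy 1.17.1. FPKM are not counts, and with 1 library for each diet no test was run. The worth of 1 fragment was taken from the commonest ratio of low values: of 3184 genes below 1 FPKM and above 0 in both libraries, 72.5% gave whole numbers up to 20 within 0.01%, against 1.54% after all ratios were shifted by 1.3%. Depth of the normal-diet library came from the spacing of FPKM times transcript length, without and with 200 nt taken off the length. The spacing was read in 105 or 108 genes of at most about 6 fragments with 1 GENCODE transcript. Depth of the depleted-diet library was this depth divided by the ratio of the worth of 1 fragment. The worth of 1 fragment, the whole numbers and the log2 ratios were tested on simulated counts with no reads shared between genes. The depth estimate was not tested in this way.

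The 9 members and the 12 companion lists were chosen with earlier results of these data known. Named were all members, the chromosome 22 neighbours, APOBEC2, APOB, symbols that begin with APOBEC and, in each list, the 2 genes of highest mean and the highest and lowest ratio among measured genes. RBM47, CELF2, PTPRC, CD14 and the leukocyte genes listed at 0 were named outside that rule, after their values were seen. Other pseudocounts, filters, scalings and folds were tried, as were leaving out short RNAs and a mean for the median. No sequence table of proteins was used here, and some genes that the rule covers are not reported here.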

Additional observations from a re-analysis of the deposited data

How the results depend on the processing

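No paired analysis was possible because only 1 library stands for each diet. For the same reason no replicate could be left out. APOBEC1 had a log2 ratio of -1.77 with a pseudocount of 0.1 FPKM, -1.20 after scaling to equal sums, -1.22 with a median ratio of 0 and -0.53 with a pseudocount of 5 FPKM. Counting only members that pass the minimum mean, 0 were at least 2-fold lower with a pseudocount of 5 FPKM, as with a minimum mean of 5 FPKM, where APOBEC1 is no longer among the genes. The number was 1 in the other 6 settings, and none of the members counted was 2-fold higher in any of the 8. Below the minimum mean, and so not counted, APOBEC3C was -1.43 and APOBEC3D 1.10 with a pseudocount of 0.1 FPKM. The median of the measured members, -0.59, rests on APOBEC1 and APOBEC3B. It was -0.86 with a pseudocount of 0.1 FPKM, -0.25 with 5 FPKM, 0.047 with a minimum mean of 5 FPKM, which leaves APOBEC3B, and 0 over all 9 genes with no filter. APOBEC3D, listed at 0 in one library, was 0.03 with 5 FPKM, in place of 0.16. Over all genes, 65 were past 2-fold upward and 46 downward as reported. These numbers became 124 and 93 with the pseudocount of 0.1 FPKM, 35 and 20 with that of 5 FPKM, and 40 and 23 with the higher minimum mean. Without short RNAs they were 25 and 26, with no filter 82 and 72, and past 1.5-fold 205 and 189. Medians of companion lists kept their sign in 67 of 72 values. The exceptions, by setting, were leukocyte markers (0.55 as reported, -0.29 with a minimum mean of 5 FPKM and 0 with no filter), restriction factors (-0.04, then 0.04 with that minimum and 0.00094 with equal sums) and single-stranded DNA genes (0.04, then -0.03 with that minimum). The leukocyte median was also 0.93 and 0.19 with pseudocounts of 0.1 and 5 FPKM. The NF-kB median of -0.25 was -0.12 with a pseudocount of 5 FPKM and -0.15 with the higher minimum. That of other cytidine deaminases, -0.17, was -0.08 under both and -0.07 with no filter. Several medians nearer to 0 also moved by over 1.5 times. Depth limits all members. APOBEC1 rests on 19 and 5 fragments if the smallest whole numbers hold. By the estimates, APOBEC3B rests on about 43 or more in each library, and the others on fewer than 20.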

Other observations

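ATRIP and TREX1 lie on the same stretch of chromosome 3, where they share 1816 nt in the RefSeq annotation of GRCh38.p14, and stood at opposite ends of their lists. ATRIP was 1.80 FPKM under normal feeding and 4.61 FPKM under depletion, and TREX1 was 8.997 and 6.22 FPKM. Without the way shared fragments were divided, reads of the shared bases cannot be told apart.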
